A study of Homo sapiens with 24 samples.

Results

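The 10 genes described here were the TGF-beta ligands TGFB1, TGFB2 and TGFB3, the activin subunits INHBA and INHBB, the related ligand GDF15, the receptors TGFBR1 and TGFBR2, and the signal transducers SMAD3 and SMAD7. They were taken by symbol from the 18889 genes of the expression table, and each had 1 row. RNA came from HCC1500, MDA-MB-175 and ZR-75-30, 3 estrogen receptor-positive lines of human breast cancer cells, kept for 48 hours in T25 flasks with either 5 mM (low) or 25 mM (high) glucose, the high level modelling hyperglycemia. Each of the 6 groups had 4 samples, 24 in all. By the study's methods the cells had been conditioned in low glucose beforehand and were then held without serum, so all groups shared serum withdrawal, and the sources name no osmotic control in the sequenced low glucose samples. Each line is a single established tumor cell line, so a difference between lines is a difference between 3 cell populations. Nothing in the labels says that the 4 samples of a group came from independently grown cultures, so p-values measure the spread between these samples, which may be technical.

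TGF-beta and activin ligands are secreted dimers that bring type II and type I serine/threonine kinase receptors together, and the type I receptor then phosphorylates SMAD2 and SMAD3, which enter the nucleus with SMAD4. SMAD7 is an inhibitory SMAD that is itself induced by the pathway and acts on the type I receptor. GDF15 is a distant member of the ligand family that is induced by metabolic and proteotoxic stress and acts through GFRAL with the co-receptor RET. In mammary epithelium TGF-beta is known for growth arrest and, in carcinoma cells, for epithelial-mesenchymal transition.

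Depth ran from 9140024 to 17998819 recovered reads a sample. In HCC1500 the low glucose samples (at least 13190982 reads) were all deeper than the high glucose samples (at most 12140912), so depth and glucose cannot be told apart there. High glucose replicate 3 of HCC1500 stood apart. Its values summed to 7319781 against 5559394 to 5716906 in the other 7 samples of that line, and changes of the 10 genes in HCC1500 are given with and without it. All 8 luminal epithelial markers reached a normalized read count of 10 in each line, with summed levels of 30780 to 64550, although CDH1, the epithelial cadherin, averaged only 55.6 in ZR-75-30 at low glucose. Summed levels of the 3 endothelial markers were at most 95.3, and those of the 5 fibroblast markers at most 101.1, with DCN at 0 in all ZR-75-30 samples and KDR at 0 in all HCC1500 samples.

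GDF15, TGFB2 and TGFB3 each kept 1 direction of change in the 3 lines, while SMAD3 and INHBB were called with opposite signs in different lines. Changes are log2 differences, high minus low glucose, on log2(value + 1), with a Benjamini-Hochberg adjusted p from limma over all genes tested, and a call is an adjusted p under 0.05. In MDA-MB-175, 7 of these 10 genes passed, where 25.7% of all 17029 genes tested did. Of these, 6 were higher (11.9% of all genes) and 1 was lower (13.7%). In ZR-75-30, 6 of the 9 genes tested passed against 46.0% of all genes, 4 higher (23.4%) and 2 lower (22.7%). In HCC1500, 5 of 10 passed against 20.5% of all genes, 2 higher (7.46%) and 3 lower (13.0%). Without replicate 3, 7 of 10 passed in HCC1500 where 58.5% of all genes did, 3 higher (20.9%) and 4 lower (37.7%), so with that sample left out the count lay close to the background. Low and high glucose samples did not overlap for 7 of the 10 genes in MDA-MB-175 (26.6% of all genes tested), 4 in ZR-75-30 (42.0%) and 5 in HCC1500 (32.4%), or 7 without replicate 3 (58.1%).

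GDF15 and TGFB2 were higher at high glucose in all 3 lines, which held for 1.81% of the 14636 genes tested in every line. TGFB3 was lower in all 3, as were 3.32% of genes. SMAD3 passed in all 3 with opposite signs, as did 1.16%. In bulk RNA such differences can come from the level per cell or from the make-up of the cells sampled, and the loss of cells of a type and less RNA per cell cannot be told apart.

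**Figure D1:**
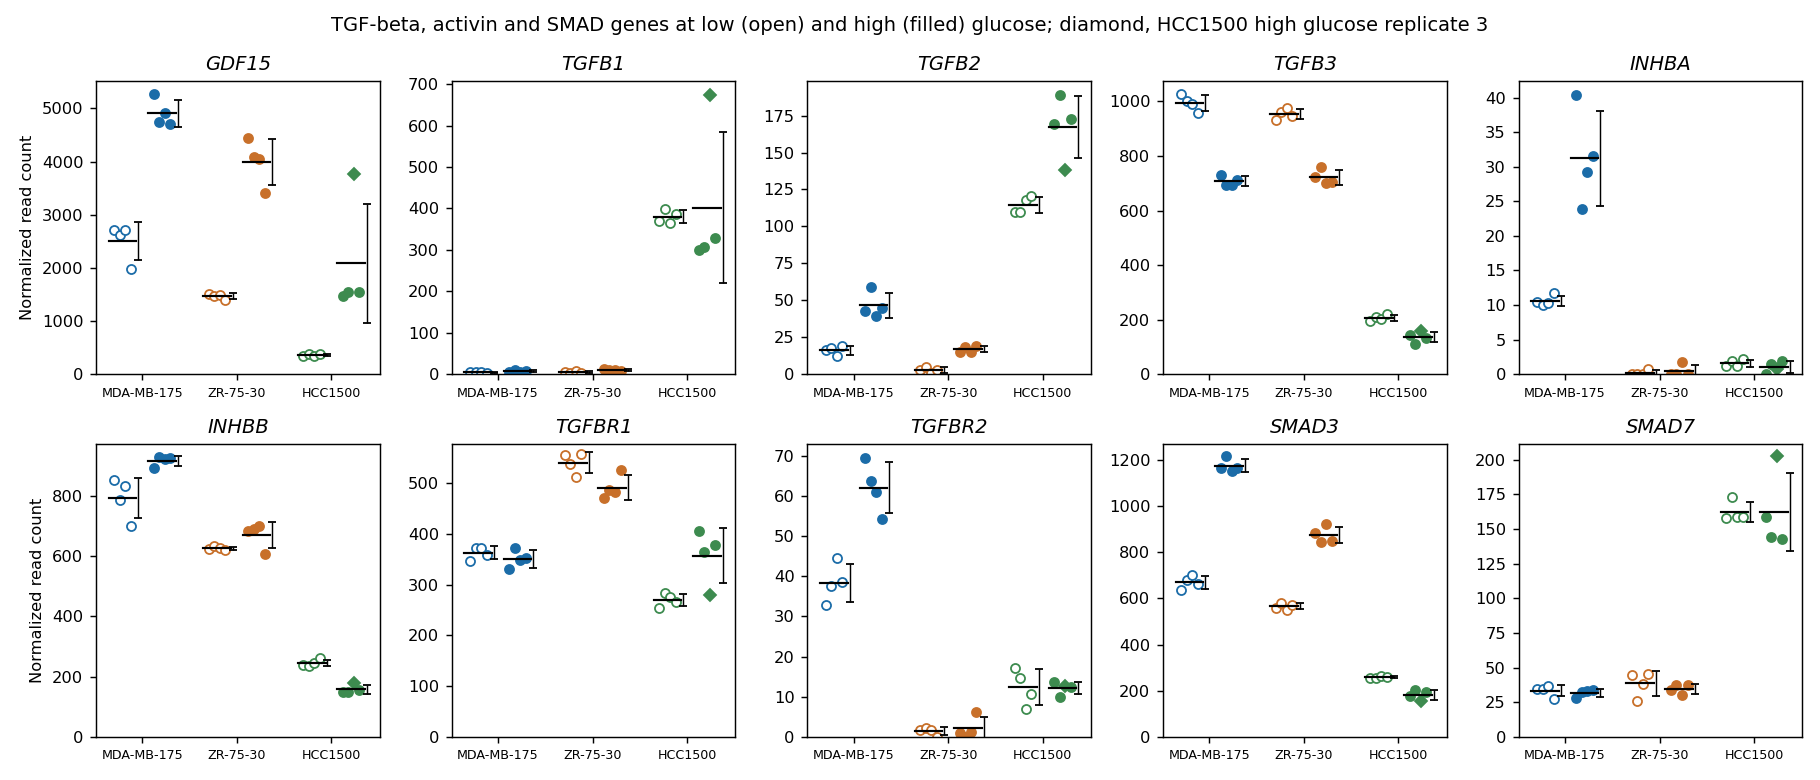
Normalized read counts (y axes, linear, each starting at 0) of the 10 genes in every sample, by line (x axes), with low glucose as open and high glucose as filled points, the mean as a horizontal line and the SD (n = 4) as the bar beside it. In HCC1500 the diamond, high glucose replicate 3, lies far above the other high glucose samples for GDF15 (3771) and TGFB1 (674.2) and below them for TGFBR1 (279.2).

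GDF15 (ENSG00000130513, GRCh37 chromosome 19, 18485541 to 18499986, plus strand) had the highest level per kb of exon of the 10 genes in each line. In MDA-MB-175 the low glucose samples had normalized read counts of 2717, 2611, 2714 and 1972, and the high glucose samples had 5268, 4745, 4915 and 4700. In ZR-75-30 they were 1513, 1478, 1492 and 1393 at low and 4437, 4079, 4045 and 3408 at high glucose. In HCC1500 they were 338.6, 370.4, 344.7 and 382.4 at low glucose and 1474, 1549, 3771 and 1539 at high glucose. All high glucose samples lay above all low glucose samples in each line, and replicate 3 of HCC1500 lay far above its group. The log2 change was 0.98 ± 0.08 (SE; adjusted p = 1.82e-07) in MDA-MB-175 and 1.44 ± 0.06 (SE; adjusted p = 1.03e-12) in ZR-75-30. In HCC1500 it was 2.41 ± 0.28 (SE; adjusted p = 6.81e-04), and without replicate 3 it was 2.08 ± 0.04 (SE; adjusted p = 6.31e-17). The size of the rise differed between lines (F test over the 3 lines, adjusted p = 0.00103, and 2.11e-07 without replicate 3). The rise in HCC1500 exceeded that in MDA-MB-175 by 1.43 (95% interval 0.86 to 1.99, adjusted p = 0.00068) and that in ZR-75-30 by 0.97 (0.41 to 1.54, adjusted p = 0.0107), or by 1.10 (adjusted p = 1.01e-07) and 0.65 (adjusted p = 9.25e-05) without replicate 3. The line with the lowest GDF15 level at low glucose thus had the largest log2 rise, and at high glucose HCC1500 still averaged 2083 ± 1125 (SD, n = 4), or 1521 ± 41.1 without replicate 3, against 4907 ± 258 in MDA-MB-175 and 3992 ± 428 in ZR-75-30.

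TGFB2 and TGFB3, ligands with overlapping receptor use, moved in opposite directions in each line. TGFB2 (ENSG00000092969, GRCh37 chromosome 1, 218518678 to 218617961, plus strand) had low glucose values of 16.5, 17.4, 11.96 and 18.8 in MDA-MB-175 and high glucose values of 42.9, 59.1, 39.4 and 44.7. In ZR-75-30 its low glucose values of 2.77, 5.12, 0.57 and 3.05 rested on 1 to 9 reads a sample, and its high glucose values were 15.1, 18.2, 14.9 and 19.2. In HCC1500, where TGFB2 was highest, the values were 109.5, 109.9, 117.7 and 120.6 at low glucose and 169.3, 189.0, 138.1 and 172.6 at high glucose. No groups overlapped. The log2 rise was 1.47 ± 0.18 (SE; adjusted p = 1.16e-05) in MDA-MB-175, against 2.35 ± 0.35 (SE; adjusted p = 2.0e-05) in ZR-75-30 and 0.54 ± 0.11 (SE; adjusted p = 0.0118) in HCC1500, or 0.62 ± 0.07 (adjusted p = 3.22e-07) without replicate 3. Rescaling every sample to CPM, in which all libraries have the same total, took the HCC1500 rise out of the calls (0.45, adjusted p = 0.0864, in a range of 3.22e-07 to 0.124 over the alternatives). The rise differed between lines (F test, adjusted p = 0.00219, and 0.00174 without replicate 3), and it was smaller in HCC1500 than in ZR-75-30 by 1.81 (95% interval 1.05 to 2.58, adjusted p = 7.79e-04), or 1.73 (adjusted p = 5.73e-04) without replicate 3. Neither the difference between ZR-75-30 and MDA-MB-175 (0.88, interval 0.12 to 1.64, adjusted p = 0.142) nor that between HCC1500 and MDA-MB-175 (-0.93, interval -1.70 to -0.17, adjusted p = 0.0859) passed, nor did either without replicate 3 (adjusted p = 0.0745 and 0.0867).

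TGFB3 (ENSG00000119699, GRCh37 chromosome 14, 76424440 to 76449354, minus strand) was the main TGF-beta ligand transcript in MDA-MB-175 and ZR-75-30. Its low glucose values in MDA-MB-175 were 1029, 1003, 990.7 and 957.8, and its high glucose values were 731.8, 694.7, 694.1 and 712.9. In ZR-75-30 they were 930.7, 961.6, 974.7 and 946.7 at low and 722.3, 760.1, 700.8 and 705.2 at high glucose. In HCC1500 they were 194.6, 208.0, 202.5 and 220.5 at low and 142.2, 110.4, 158.2 and 133.4 at high glucose. Every high glucose sample lay below every low glucose sample of its line. TGFB3 fell by 0.49 ± 0.04 (SE; adjusted p = 2.74e-07), by 0.40 ± 0.04 (SE; adjusted p = 1.41e-07) and by 0.61 ± 0.12 (SE; adjusted p = 0.00847) on the log2 scale in MDA-MB-175, then ZR-75-30, then HCC1500. Without replicate 3 it fell by 0.68 ± 0.08 (adjusted p = 4.81e-07) in HCC1500. A difference between lines did not pass with all samples (F test, adjusted p = 0.288) and did without replicate 3 (adjusted p = 0.0147).

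TGFB1 (ENSG00000105329, GRCh37 chromosome 19, 41807492 to 41859827, minus strand) set the lines apart. At low glucose it had 370.9, 398.0, 365.8 and 387.1 in HCC1500, but 5.62, 4.02, 3.99 and 3.56 in MDA-MB-175 and 6.09, 2.84, 8.55 and 1.53 in ZR-75-30, from 2 to 15 reads a sample. High glucose values were 299.7, 306.0, 674.2 and 328.6 in HCC1500, 4.16, 10.8, 5.86 and 6.31 in MDA-MB-175 and 13.5, 9.45, 11.1 and 6.85 in ZR-75-30. Low and high glucose samples overlapped in each line. The log2 change was 0.50 (95% interval -0.11 to 1.12, adjusted p = 0.232) in MDA-MB-175 and 1.11 (0.33 to 1.90, adjusted p = 0.0201) in ZR-75-30, where leaving out high glucose replicate 1, low glucose replicate 2 or low glucose replicate 4 took it out of the calls (0.98, 0.98 and 0.78, adjusted p = 0.0626, 0.0573 and 0.0715, in a range of 0.00434 to 0.0715 over the alternatives). In HCC1500 a single sample decided the result. With all samples the change was -0.01 (interval -0.56 to 0.54, adjusted p = 0.984). Without replicate 3, TGFB1 fell by 0.29 ± 0.05 (SE; adjusted p = 3.97e-05), where the median of all genes tested was also lower at -0.12. Its exons share 215 bases with HNRNPUL1 on the opposite strand. A stranded kit is named for the tumors but none for the cell lines, so reads of the weakly expressed gene in MDA-MB-175 and ZR-75-30 may include that neighbor's. The other 9 genes share no exon bases with another gene in the table.

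Per kb of exon (all annotated exons joined), the 3 TGF-beta ligands had a different make-up in HCC1500. TGFB3 made up 97.95% of their summed level in MDA-MB-175 and 98.95% in ZR-75-30 at low glucose. In HCC1500, TGFB1 made up 66.6%, TGFB3 22.6% and TGFB2 10.8%. At high glucose the TGFB3 share was 93.29% for MDA-MB-175, 95.89% for ZR-75-30 and 14.7% for HCC1500, and the TGFB2 share was 5.29%, 1.93% and 15.6%. The ranking of the ligands within a line was the same at both glucose levels except in HCC1500, where TGFB2 passed TGFB3 (also without replicate 3, 19.6% against 16.5%).

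The windows of 250 bases before the first RefSeq start of TGFB2 and TGFB3 (GRCh38.p14) are shown because these ligands moved in opposite directions in every line. Each holds a single E-box, CACGTG, set in capitals, and the TGFB2 window (chr1:218345086-218345335, plus strand) also lies within an exon of the antisense gene TGFB2-AS1. That exon runs on into the start of TGFB2, so without strand its reads could be counted with TGFB2. The TGFB3 window is chr14:75983012-75983261, minus strand.
TGFB2: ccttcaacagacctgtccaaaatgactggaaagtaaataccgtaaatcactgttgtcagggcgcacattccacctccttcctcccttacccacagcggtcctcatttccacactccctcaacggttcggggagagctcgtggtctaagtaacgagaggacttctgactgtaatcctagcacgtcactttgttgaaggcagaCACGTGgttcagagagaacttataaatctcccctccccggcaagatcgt
TGFB3: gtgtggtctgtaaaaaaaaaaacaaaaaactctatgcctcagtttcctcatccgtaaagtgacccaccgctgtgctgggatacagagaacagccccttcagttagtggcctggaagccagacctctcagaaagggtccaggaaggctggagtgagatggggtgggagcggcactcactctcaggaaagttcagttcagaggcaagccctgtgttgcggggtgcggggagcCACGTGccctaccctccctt
The E-box starts 49 bases before the TGFB2 start and 20 bases before the TGFB3 start. On both strands, the SMAD-binding element CAGAC was also found in both windows, starting 243 and 53 bases before TGFB2 and 245 and 133 bases before TGFB3, and the nearer one in TGFB2 shares its last base with the E-box. Of 11357 promoter windows of this length in the same table, 8.7% held the E-box and 36.3% the SMAD-binding element. The AP-1 site TGANTCA (4.4% of windows) and the cyclic AMP response element TGACGTCA (2.6%) were in none of the 10 windows. A match of letters is a description of the window only.

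The activin subunits separated the lines. INHBA (ENSG00000122641, GRCh37 chromosome 7, 41706766 to 41745432, minus strand), which forms activin A, was measurable mainly in MDA-MB-175, at 10.4, 10.1, 10.3 and 11.7 in low glucose and 40.4, 23.9, 29.3 and 31.5 in high glucose. The groups did not overlap and the log2 rise was 1.45 ± 0.19 (SE; adjusted p = 2.37e-05). In ZR-75-30 it had 0, 0, 0 and 1 read at low and 0, 0, 4 and 0 reads at high glucose, and it was not tested. In HCC1500 it had 3 to 6 reads at low and 0 to 4 reads at high glucose, with a change of -0.44 (95% interval -1.29 to 0.40, adjusted p = 0.449), or -0.41 (-1.33 to 0.52, adjusted p = 0.449) without replicate 3. A count of 3 reads is worth 0.95 to 2.29 depending on the sample, so a difference in these lines was not detectable at this depth. INHBA entered the fit of all lines through its values in the others, ZR-75-30 having almost no reads. There the limma F test for a difference between lines passed (adjusted p = 0.00835, and 0.00678 without replicate 3). A likelihood ratio test in DESeq2 also passed (adjusted p = 0.0349), and the edgeR F test on the recovered reads did not (adjusted p = 0.0924).

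INHBB (ENSG00000163083, GRCh37 chromosome 2, 121103712 to 121109379, plus strand), which forms activin B, was abundant in each line and changed in opposite directions in MDA-MB-175 and HCC1500. In MDA-MB-175 it had 850.7, 783.9, 830.2 and 699.9 at low and 890.3, 926.4, 920.1 and 925.3 at high glucose. In HCC1500 it had 238.3, 235.7, 245.0 and 260.5 at low and 149.3, 147.8, 177.5 and 154.2 at high glucose. The groups did not overlap in either line, and they did in ZR-75-30, with 619.9 to 632.9 at low and 605.8 to 699.1 at high glucose. In MDA-MB-175 INHBB rose by 0.21 ± 0.05 (SE; adjusted p = 0.00816), while it had a change of 0.09 ± 0.05 (SE; adjusted p = 0.11) in ZR-75-30, and fell by 0.64 ± 0.09 (SE; adjusted p = 0.00193) in HCC1500. Without replicate 3 it fell by 0.70 ± 0.06 (adjusted p = 4.72e-09) there. In ZR-75-30 the change passed without high glucose replicate 4 (0.14, adjusted p = 0.00673, in a range up to 0.328 over the alternatives). The change differed between lines (F test, adjusted p = 4.79e-07, and 9.95e-10 without replicate 3), being lower in HCC1500 than in MDA-MB-175 by 0.85 (95% interval 0.66 to 1.05, adjusted p = 7.31e-07) and than in ZR-75-30 by 0.73 (0.54 to 0.93, adjusted p = 3.50e-06), or by 0.91 (adjusted p = 1.44e-09) and 0.79 (adjusted p = 9.03e-09) without replicate 3.

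With all samples each receptor was called in 1 line. TGFBR1 (ENSG00000106799, GRCh37 chromosome 9, 101866320 to 101916474, plus strand), the type I receptor, had 345.5, 372.5, 372.9 and 359.1 at low and 329.9, 372.6, 349.0 and 352.2 at high glucose in MDA-MB-175, overlapping groups with a change of -0.05 (95% interval -0.16 to 0.07, adjusted p = 0.566). In ZR-75-30 it had 555.1, 537.4, 511.0 and 558.1 at low and 470.8, 485.4, 481.9 and 526.3 at high glucose and fell by 0.14 ± 0.05 (SE; adjusted p = 0.024). That call was lost in DESeq2 (adjusted p = 0.0501, in a range of 0.00487 to 0.227 over the alternatives) and on leaving out any of 5 of its 8 samples (low glucose replicate 1 or 4 or high glucose replicate 1, 2 or 3). In HCC1500 it had 254.6, 283.0, 274.9 and 266.1 at low and 404.7, 364.2, 279.2 and 377.1 at high glucose, where only the value of replicate 3 overlapped the low glucose samples. The change was 0.39 ± 0.12 (SE; adjusted p = 0.0534) with all samples and 0.50 ± 0.05 (SE; adjusted p = 1.17e-07) without replicate 3. The change differed between lines (F test, adjusted p = 0.00212, and 1.20e-07 without replicate 3).

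TGFBR2 (ENSG00000163513, GRCh37 chromosome 3, 30648093 to 30735634, plus strand), the type II receptor that binds TGF-beta, was low in every line. In MDA-MB-175 its values rose from 32.9, 37.5, 44.4 and 38.7 to 69.5, 63.6, 60.9 and 54.2, with no overlap, a log2 change of 0.68 ± 0.12 (SE; adjusted p = 7.07e-04). That call was lost in the fit of all 24 samples (0.68, adjusted p = 0.373), where the lines share 1 estimate of the spread. In ZR-75-30 it had 0 to 4 reads at low and 0 to 9 reads at high glucose, and the change was 0.12 (95% interval -1.01 to 1.25, adjusted p = 0.875). In HCC1500 it had 17.1, 14.6, 6.90 and 10.8 at low and 13.6, 9.95, 12.6 and 12.5 at high glucose, and the change was 0.04 (interval -0.57 to 0.65, adjusted p = 0.94), or 0.02 (-0.54 to 0.58, adjusted p = 0.956) without replicate 3. A difference between lines in the TGFBR2 change did not pass (F test, adjusted p = 0.653, and 0.593 without replicate 3).

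SMAD3 (ENSG00000166949, GRCh37 chromosome 15, 67356101 to 67487511, plus strand), which carries the signal of TGF-beta and activin receptors, was called in every line and with opposite signs. In MDA-MB-175 its low glucose values were 634.9, 679.4, 703.2 and 663.8, and its high glucose values were 1167, 1217, 1152 and 1163. In ZR-75-30 they were 559.0, 579.5, 551.4 and 571.1 at low and 882.7, 844.5, 921.8 and 848.5 at high glucose. In HCC1500 they were 253.9, 256.3, 262.7 and 259.7 at low and 175.2, 203.5, 154.5 and 195.3 at high glucose. The groups did not overlap in any line, being lower at high glucose in HCC1500 and higher in the other lines. The rise of SMAD3 was 0.81 ± 0.04 (SE; adjusted p = 1.45e-09) in MDA-MB-175 and 0.63 ± 0.04 (SE; adjusted p = 7.61e-10) in ZR-75-30, and it fell by 0.51 ± 0.10 (SE; adjusted p = 0.00912) in HCC1500. Without replicate 3 it fell by 0.43 ± 0.06 (adjusted p = 2.73e-06). With all 8 samples of HCC1500 the fall kept its direction but missed the threshold in edgeR (-0.45, adjusted p = 0.0538) and after median-of-ratios rescaling (-0.46, adjusted p = 0.0556, the highest over the alternatives, the lowest being 1.38e-06). SMAD3 had the smallest F test p of the 10 genes for a difference between lines (adjusted p = 5.72e-10, and 2.10e-13 without replicate 3). The change in HCC1500 minus that in MDA-MB-175 was -1.32 (95% interval -1.504 to -1.13, adjusted p = 8.53e-10), and minus that in ZR-75-30 it was -1.14 (-1.32 to -0.95, adjusted p = 5.97e-09), with -1.24 (adjusted p = 3.44e-13) and -1.06 (adjusted p = 2.89e-12) without replicate 3. MDA-MB-175 and ZR-75-30 differed by 0.18 (interval of ZR-75-30 minus MDA-MB-175 -0.37 to 0.01, adjusted p = 0.233), a difference that passed with replicate 3 left out of the shared fit (adjusted p = 0.0252).

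The window before the first RefSeq start of SMAD3 (GRCh38.p14, chr15:67065352-67065601, plus strand) is shown because SMAD3 was called in every line and with opposite signs. It also holds a single E-box, in capitals, starting 173 bases before the start.
SMAD3: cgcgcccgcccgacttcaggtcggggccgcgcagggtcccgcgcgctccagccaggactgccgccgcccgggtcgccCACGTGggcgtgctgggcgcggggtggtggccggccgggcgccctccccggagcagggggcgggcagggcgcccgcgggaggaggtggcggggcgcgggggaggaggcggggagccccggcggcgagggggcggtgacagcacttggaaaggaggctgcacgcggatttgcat
Of the 10 genes, TGFB2, TGFB3 and SMAD3, whose windows are shown, were the 3 with an E-box there. The windows of INHBB, also called with opposite signs, and GDF15, higher in every line, are not shown and hold no E-box. No SMAD-binding element was found in the SMAD3 window, and the windows of GDF15, TGFBR1 and SMAD7 held that element without an E-box.

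SMAD7 (ENSG00000101665, GRCh37 chromosome 18, 46446223 to 46477335, minus strand), the feedback inhibitor, passed in no line. It had 27.5 to 36.4 at low and 27.9 to 33.7 at high glucose in MDA-MB-175, and 26.2 to 45.0 and 30.2 to 37.7 in ZR-75-30. In HCC1500 it had 158.1, 172.8, 158.8 and 158.5 at low and 158.7, 144.3, 202.7 and 143.1 at high glucose, again with replicate 3 as the highest value. The changes were -0.07 (95% interval -0.37 to 0.23, adjusted p = 0.78), -0.12 (-0.49 to 0.24, adjusted p = 0.604) and -0.01 (-0.30 to 0.27, adjusted p = 0.961), and without replicate 3 the change in HCC1500 was -0.12 (-0.26 to 0.01, adjusted p = 0.11), where the median of all genes tested was -0.12. The interval in ZR-75-30 reaches 0.49 on the log2 scale, and the F test between lines gave an adjusted p of 0.921 (0.959 without replicate 3).

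**Figure D2:**
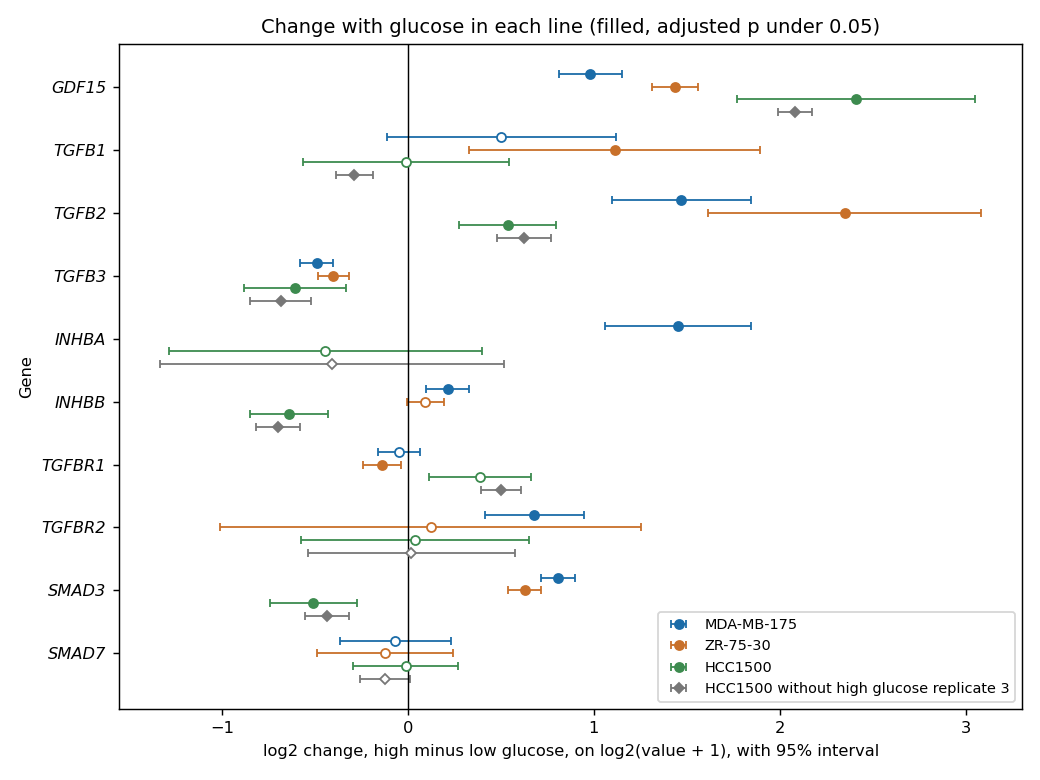
Log2 change with high glucose (x axis, on log2(value + 1), with 95% intervals) of each gene (y axis) in the 3 lines, and in HCC1500 without high glucose replicate 3 (gray diamonds), with filled symbols for an adjusted p under 0.05. GDF15 and TGFB2 lie right of 0 and TGFB3 left of 0 in every line, and SMAD3 lies at -0.51 in HCC1500 and at 0.81 and 0.63 in the other lines.

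Over the 10 genes, the F test for a change that differs between lines passed for 6 (TGFB2, INHBA, INHBB, GDF15, TGFBR1 and SMAD3), where it did for 29.3% of 18144 genes. The INHBA result rests on values near 0 in ZR-75-30 and did not pass in edgeR, as above. Without replicate 3 of HCC1500 TGFB1 (adjusted p = 0.0313) and TGFB3 (0.0147) joined them, making 8 of 10 against 48.6% of genes. In that sample the 5 genes with 2.09 to 5.22 kb of exon lay above the mean of the other 3 high glucose samples of HCC1500, by 0.24 (INHBB) to 1.31 (GDF15) on the log2 scale. Of the 5 genes with 6.05 to 10.01 kb, TGFBR1 (-0.45), TGFB2 (-0.35), SMAD3 (-0.30) and INHBA (-0.14) lay below it and TGFBR2 was 0.08 above it. The part of exon length in the values of this sample was not tested.

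At low glucose, levels per kb of exon placed GDF15 first in each line, at 1198 ± 171 (SD, n = 4) for MDA-MB-175, 703 ± 25.1 for ZR-75-30 and 172 ± 9.97 for HCC1500. INHBB (246 ± 20.9 and 195 ± 1.74) and TGFB3 (191 ± 5.64 and 183 ± 3.62) came next in MDA-MB-175 and ZR-75-30, while TGFB1 (117 ± 4.54) came next in HCC1500. In each line the type I receptor far exceeded the type II receptor. TGFBR1 had 45.4, 67.6 and 33.8 per kb in MDA-MB-175, then ZR-75-30, then HCC1500, and TGFBR2 had 5.60, 0.206 and 1.80. SMAD3 had 67.0, 56.5 and 25.8 per kb, and SMAD7 8.43, 9.76 and 41.0, so that SMAD7 exceeded SMAD3 per kb in HCC1500 alone.

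**Figure D3:**
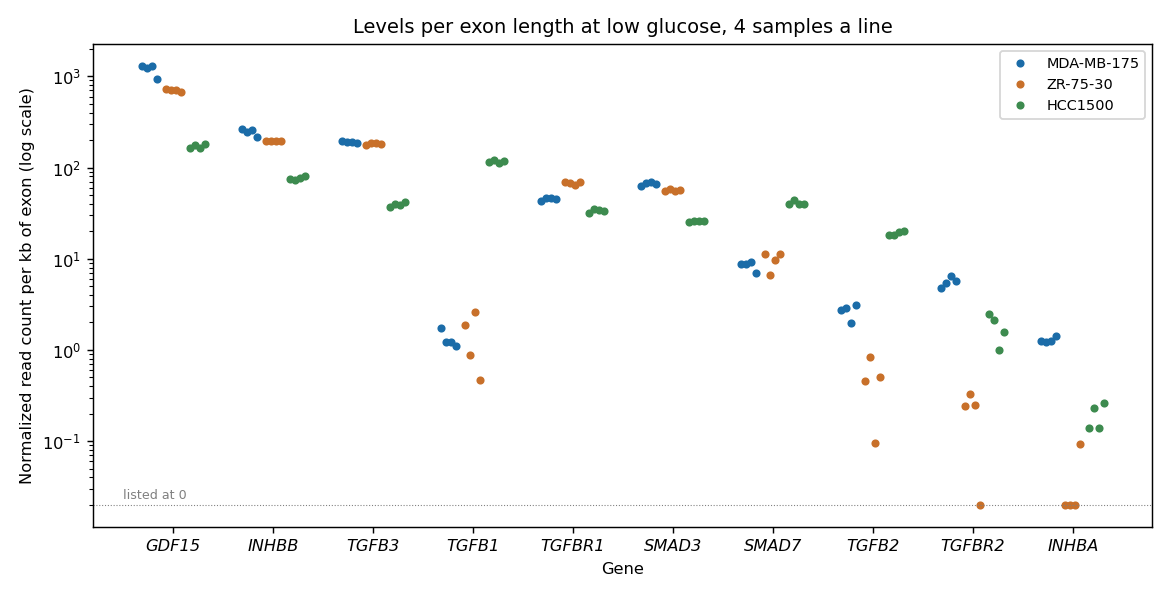
Normalized read count per kb of exon (y axis, log scale) of each gene (x axis, ordered by the highest line mean) in the 4 low glucose samples of each line, with values of 0 drawn on the dotted line. TGFB1 lies near 117 in HCC1500 and below 3 in the other lines, and TGFBR2 lies below TGFBR1 in every sample.

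Between lines at low glucose, all 10 genes differed between HCC1500 and MDA-MB-175 (80.6% of all genes did) and between HCC1500 and ZR-75-30 (80.4%), and 7 of 10 differed between ZR-75-30 and MDA-MB-175 (73.1%), shares of the kind found across the table. Against MDA-MB-175, HCC1500 was higher in TGFB1 by 6.18 ± 0.31 (SE; adjusted p = 8.08e-11), in TGFB2 by 2.77 ± 0.31 (SE; adjusted p = 8.33e-07) and in SMAD7 by 2.26 ± 0.15 (SE; adjusted p = 1.94e-09) on the log2 scale, and lower in the other 7. It was lower in GDF15 (-2.79 ± 0.08), TGFB3 (-2.27 ± 0.04), INHBA (-2.19 ± 0.24), INHBB (-1.69 ± 0.05), TGFBR2 (-1.62 ± 0.34), SMAD3 (-1.37 ± 0.04) and TGFBR1 (-0.43 ± 0.05). Against ZR-75-30, HCC1500 was higher in TGFB1 (6.23), TGFB2 (5.05), TGFBR2 (2.53), SMAD7 (2.07) and INHBA (1.15), and lower in TGFB3 (-2.20), GDF15 (-2.03), INHBB (-1.35), SMAD3 (-1.13) and TGFBR1 (-1.0). The INHBA difference rests on 3 to 6 reads in HCC1500 against 0 or 1 read a sample, and it did not pass at high glucose (0.55, adjusted p = 0.23, or 0.58, adjusted p = 0.214, without replicate 3). Against MDA-MB-175, ZR-75-30 was higher in TGFBR1 (0.57 ± 0.05, adjusted p = 2.06e-08) and lower in TGFBR2 (-4.15), INHBA (-3.33), TGFB2 (-2.28), GDF15 (-0.76), INHBB (-0.33) and SMAD3 (-0.25). TGFB1 (-0.05, 95% interval -0.72 to 0.62), TGFB3 (-0.06, -0.15 to 0.03) and SMAD7 (0.18, -0.14 to 0.50) did not pass between these lines (adjusted p = 0.903, 0.188 and 0.29). At low glucose ZR-75-30 had 0 to 4 reads a sample for TGFBR2, 0 or 1 for INHBA and 1 to 9 for TGFB2. The sizes of its differences in these genes from either other line are thus uncertain.

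Some differences between lines were of another size at high glucose, where no called difference of the opposite sign was found for these examples. TGFBR1 was lower in HCC1500 than in MDA-MB-175 at low glucose, but the difference at high glucose was 0.01 (adjusted p = 0.94), or 0.12 (adjusted p = 0.0518) without replicate 3. GDF15 in ZR-75-30 minus MDA-MB-175 was -0.30 (adjusted p = 0.311) at high glucose with all samples and passed with replicate 3 of HCC1500 left out of the shared fit (adjusted p = 4.70e-04). For SMAD3 the gap between HCC1500 and MDA-MB-175 widened from -1.37 at low to -2.69 at high glucose (adjusted p = 2.66e-11), or -2.61 (adjusted p = 1.30e-15) without replicate 3.

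Beyond these 10 genes, 73 of 78 other genes of the pathway had a row in the table, in 6 roles. In MDA-MB-175, 25 of the 70 tested passed, 20 higher and 5 lower, or 35.7% against 25.7% of all genes tested, with a median change of 0.07 against -0.02. In ZR-75-30, 35 of 61 passed, 24 higher and 11 lower (57.4% against 46.0%, median 0.09 against 0.01). In HCC1500, 16 of 61 passed, 10 higher and 6 lower (26.2% against 20.5%, median -0.05 against -0.06). Without replicate 3, 41 of 60 passed there, 20 higher and 21 lower (68.3% against 58.5%, median 0.01 against -0.12). The shares lay not far above those of all genes. CDKN1A, KLF10 and VEGFA were called higher and RET was called lower in all 3 lines, among 54 of these genes tested in every line, where 1.81% of all genes were higher and 3.32% lower in all 3. KLF10 and VEGFA were named after their values were seen.

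**Figure D4:**
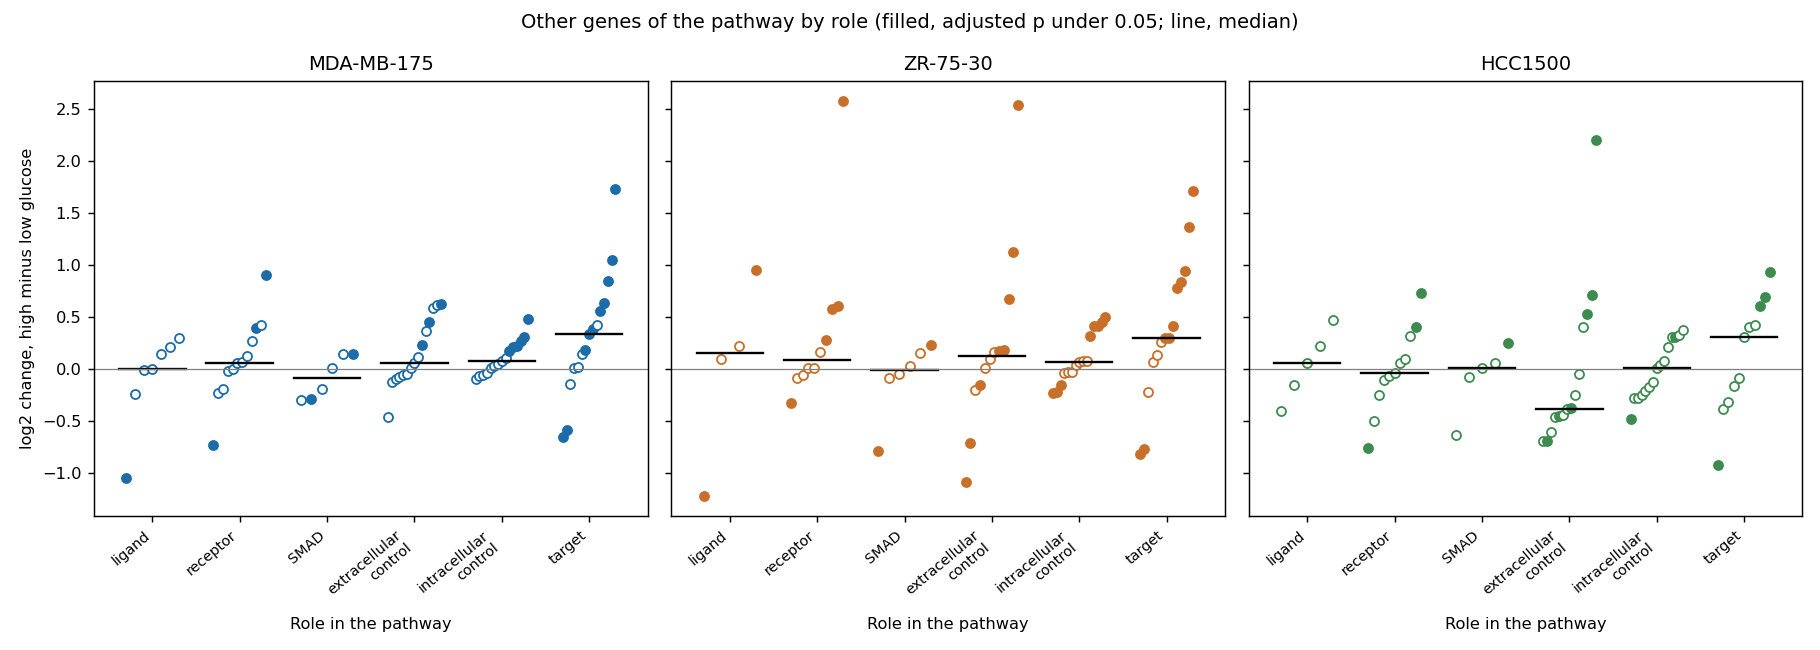
Log2 change with high glucose (y axis) of the other genes of the pathway by role (x axis) in each line, each point a gene, filled where the adjusted p is under 0.05, with the median of a role as a line. Among target genes the medians of the 3 panels are 0.34, 0.30 and 0.30, the last with 4 of 11 genes called. Without high glucose replicate 3 the HCC1500 median of target genes is -0.08, against -0.12 for all genes tested.

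Target genes, which TGF-beta or the related BMP signals are known to regulate up or down, were the role with the highest share of calls in MDA-MB-175 and ZR-75-30, 10 of 15 (8 higher, 2 lower; 66.7% against 25.7% of all genes) and 10 of 14 (8 higher, 2 lower; 71.4% against 46.0%). In HCC1500 4 of 11 passed (3 higher, 1 lower; 36.4% against 20.5%), and without replicate 3, 6 of 11 (3 higher, 3 lower), a share of 54.5% that lay below the 58.5% of all genes. TGFBI, a secreted matrix protein, rose from 34.4 ± 3.99 to 116 ± 3.17 in MDA-MB-175 (log2 change 1.73, adjusted p = 5.62e-09) and to 10.5 ± 3.09 from 5.51 ± 1.97 in ZR-75-30 (0.84, adjusted p = 0.0266, and 0.0678 in DESeq2), where the samples overlapped. CTGF, a matricellular protein, rose from 75.6 ± 9.63 to 248 ± 9.63 in ZR-75-30 (1.71, adjusted p = 2.11e-11), had a change of 0.14 (adjusted p = 0.143) in MDA-MB-175, and had 0 reads in all 8 HCC1500 samples, where a count of 0 allows up to 3 reads a sample. CDKN1A, which encodes the cell cycle inhibitor p21, rose in each line, by 0.18 (adjusted p = 0.0102) in MDA-MB-175, by 0.94 (adjusted p = 9.66e-12) in ZR-75-30 and by 0.94 in HCC1500 (adjusted p = 0.00639; 0.74 without replicate 3, adjusted p = 1.26e-13). Falls among the targets were led by ID2, an inhibitor of helix-loop-helix factors that BMPs induce and TGF-beta represses in epithelial cells, in MDA-MB-175 (-0.65, adjusted p = 3.51e-05), by JUNB in ZR-75-30 (-0.82, adjusted p = 2.62e-08) and by FN1, fibronectin, in HCC1500 (-0.93, adjusted p = 0.0221, and 0.0573 in edgeR; -0.67 without replicate 3, adjusted p = 6.35e-09).

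The intracellular regulators gave 6 of 15 calls in MDA-MB-175, all higher, 8 of 15 in ZR-75-30 (5 higher, 3 lower) and 2 of 15 in HCC1500 (1 and 1), or 11 of 15 (6 higher, 5 lower) without replicate 3. The shares were 40%, 53.3%, 13.3% and 73.3%, against 25.7%, 46.0%, 20.5% and 58.5% of all genes, so that in HCC1500 with all samples it lay below the background. PMEPA1, a TGF-beta-induced feedback inhibitor that binds SMAD2 and SMAD3, rose from 816 ± 32.7 to 1141 ± 24.7 in MDA-MB-175 (0.48, adjusted p = 3.78e-07) and from 171 ± 25.1 to 226 ± 9.53 in ZR-75-30 (0.41, adjusted p = 4.79e-04). In HCC1500 its change was -0.25 (adjusted p = 0.115) with all samples, and it fell by 0.34 (adjusted p = 1.69e-07) without replicate 3. SKIL, a SMAD corepressor, rose by 0.26 (adjusted p = 0.003) in MDA-MB-175 and fell by 0.23 in ZR-75-30 (adjusted p = 0.00117), and in HCC1500 its change was 0.38 (adjusted p = 0.0903), or 0.51 (adjusted p = 2.76e-07) without replicate 3. NEDD4L, a ubiquitin ligase, rose by 0.50 in ZR-75-30 (adjusted p = 2.07e-08) and by 0.17 in MDA-MB-175 (adjusted p = 0.0258). Its change in HCC1500 was -0.22 (adjusted p = 0.0689), or -0.18 (adjusted p = 3.71e-04) without replicate 3. USP15, a deubiquitinase, rose by 0.31 in HCC1500 (adjusted p = 0.0377), and ZFYVE9, the anchor protein SARA, fell by 0.48 there (adjusted p = 0.0499). The USP15 and ZFYVE9 calls also passed without replicate 3 (0.38, adjusted p = 4.50e-08, and -0.32, adjusted p = 9.69e-07). With all samples, however, USP15 did not pass in edgeR (adjusted p = 0.0856), with the replicate block (0.116) or with CPM rescaling (0.299), and ZFYVE9 did not pass in edgeR (0.175), DESeq2 (0.172), with the block (0.0809) or with CPM rescaling (0.0985).

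Among extracellular regulators 3 of 15 passed in MDA-MB-175, all higher, 8 of 12 in ZR-75-30 (5 higher, 3 lower) and 6 of 14 in HCC1500 (3 and 3), or 11 of 14 (4 higher, 7 lower) without replicate 3. Against the same shares of all genes, these were 20%, 66.7%, 42.9% and 78.6%. FST, follistatin, which binds and neutralizes activins, rose in HCC1500 from 17.3 ± 1.36 to 87.6 ± 32.6, a log2 change of 2.21 (adjusted p = 6.61e-04), or 2.002 (adjusted p = 2.05e-08) without replicate 3. It averaged under 1 in both other lines. FSTL3, a related activin-binding protein, rose from 34.6 ± 3.82 to 54.2 ± 9.54 in MDA-MB-175 (0.63, adjusted p = 0.00365) and from 28.8 ± 3.92 to 63.6 ± 7.03 in ZR-75-30 (1.12, adjusted p = 3.08e-06). LTBP1, which holds latent TGF-beta in the matrix, had a change of 0.06 in MDA-MB-175 (adjusted p = 0.562), rose by 0.18 in ZR-75-30 (adjusted p = 0.0144, and 0.0546 in DESeq2) and had a change of -0.39 in HCC1500 (adjusted p = 0.114), or fell by 0.22 (adjusted p = 1.79e-04) without replicate 3. LTBP2 fell by 0.69 in HCC1500 (adjusted p = 0.0106; by 0.75 without replicate 3, adjusted p = 1.19e-04). It rose by 0.67 in ZR-75-30 (adjusted p = 0.00221) and had a change of -0.05 in MDA-MB-175 (adjusted p = 0.743). In ZR-75-30 LRRC32, a cell surface docking protein for latent TGF-beta, rose from 0.419 ± 0.532 to 6.91 ± 1.17 (2.54, adjusted p = 1.16e-05). Its low glucose values of 0 to 1.11 lay under that of 3 reads, and it was tested through its high glucose samples. The size of its rise is uncertain, being 0.86 with CPM rescaling, 3.74 in edgeR and 3.95 in DESeq2. CHRD, the BMP antagonist chordin, fell in ZR-75-30 from 38.1 ± 5.90 to 17.5 ± 3.31 (-1.09, adjusted p = 7.72e-05).

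Receptors outside the 10 genes gave 3 of 12 calls in MDA-MB-175 (2 higher, 1 lower), 5 of 10 in ZR-75-30 (4 and 1) and 3 of 11 in HCC1500 (2 and 1), or 6 of 11 (3 and 3) without replicate 3. These shares of 25%, 50%, 27.3% and 54.5% were close to those of all genes (25.7%, 46.0%, 20.5% and 58.5%). RET, the co-receptor through which GFRAL signals, fell in each line, from 529 ± 26.4 to 319 ± 9.38 in MDA-MB-175 (-0.73, adjusted p = 2.89e-08), from 109 ± 11.1 to 87.0 ± 13.6 in ZR-75-30 (-0.33, adjusted p = 0.0243) and from 452 ± 8.34 to 267 ± 20.7 in HCC1500 (-0.76, adjusted p = 4.41e-04; -0.76 without replicate 3, adjusted p = 8.49e-10). ENG, the co-receptor endoglin, rose from 4.95 ± 0.35 to 10.3 ± 1.75 in MDA-MB-175 (0.91, adjusted p = 0.00799) and from 2.24 ± 2.17 to 15.1 ± 3.22 in ZR-75-30 (2.58, adjusted p = 6.53e-05). TGFBR3, betaglycan, which presents TGFB2 to the signaling receptors, rose from 208 ± 9.94 to 352 ± 73.7 in HCC1500 (0.73, adjusted p = 0.0132, and 0.0702 with CPM rescaling; 0.90 without replicate 3, adjusted p = 4.02e-11) and, by 0.57 (adjusted p = 0.024, and 0.0584 in DESeq2), in ZR-75-30. The activin receptor ACVR1B rose by 0.28 in ZR-75-30 (adjusted p = 4.62e-05) and had changes of 0.05 and -0.04 in MDA-MB-175 and in HCC1500 (adjusted p = 0.529 and 0.815), or 0.03 (adjusted p = 0.516) in the latter without replicate 3. ACVR2A had changes of -0.02, -0.06 and 0.31 in the 3 lines, HCC1500 last (adjusted p = 0.898, 0.752 and 0.0826), the last passing at 0.25 without replicate 3 (adjusted p = 0.017).

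Of the other SMADs, 2 of 6 passed in MDA-MB-175, 2 of 6 in ZR-75-30 and 1 of 5 in HCC1500, or 4 of 5 without replicate 3. That is 33.3%, 33.3%, 20% and 80%, below the share of all genes in ZR-75-30 and close to it in HCC1500 with all samples, on few genes. SMAD2, the partner of SMAD3, rose by 0.14 (adjusted p = 0.0496) in MDA-MB-175 and by 0.25 in HCC1500 (adjusted p = 0.0263; 0.25 without replicate 3, adjusted p = 4.27e-06), and had a change of 0.03 in ZR-75-30 (adjusted p = 0.731). The MDA-MB-175 call was lost in DESeq2 (adjusted p = 0.0522), with the replicate block (0.0684) and with CPM rescaling (0.101), and the HCC1500 call with the block (0.122) and with CPM rescaling (0.23). SMAD4, the shared partner, rose by 0.23 in ZR-75-30 (adjusted p = 0.0016) and had changes of 0.14 and 0.06 in MDA-MB-175 and HCC1500 (adjusted p = 0.15 and 0.76; 0.15 without replicate 3 in the latter, adjusted p = 0.00707). SMAD1 fell by 0.29 (adjusted p = 0.00746) in MDA-MB-175, and SMAD6, an inhibitory SMAD of the BMP branch, fell by 0.79 in ZR-75-30 (adjusted p = 0.00272). Other ligands gave 1 of 7 calls in MDA-MB-175, BMP7, which fell from 19.8 ± 1.26 to 9.27 ± 2.61 (-1.05, adjusted p = 0.0018). In ZR-75-30 2 of 4 passed, where BMP8B rose from 44.2 ± 3.38 to 87.1 ± 15.7 (0.95, adjusted p = 9.12e-06). BMP7 fell there by 1.22 (adjusted p = 0.0202, and 0.0905 in DESeq2), with overlapping samples. In HCC1500 0 of 5 passed (3 of 4 without replicate 3). These shares of 14.3%, 50%, 0% and 75% stood against 25.7%, 46.0%, 20.5% and 58.5% of all genes, on few genes. Of the 5 in HCC1500, BMP4 (0.47, adjusted p = 0.0793), chosen after its values were seen, was the 1 gene that passed in edgeR (adjusted p = 0.0154) and in DESeq2 (adjusted p = 8.66e-04), and 1 had an unadjusted p under 0.05.

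Genes whose values followed those of a member most closely were sought over 23 samples, without HCC1500 replicate 3, after each line's mean was taken out, so the samples share the glucose contrast and their lines' depths. GDF15 was most like SLC3A2 (Pearson r = 0.994) and TNFRSF10B (0.987). SMAD3 was most like BHLHE40 (0.979) and KLHL5 (0.969), TGFB3 like TRIM3 (0.973) and IVD (0.965), INHBB like INF2 and FAM129B (0.964 each), TGFB2 like MLLT10 (0.945) and HECA (0.933), and TGFBR1 like TOB2 (0.923) and SLC7A8 (0.919). The closest genes to TGFB1 (AC133919.6, 0.843, and ARID1B, 0.842) and SMAD7 (APOLD1, 0.755, and RP11-480I12.7, 0.721) were less like them. With all 24 samples, r for GDF15 and SLC3A2 was 0.993, for SMAD3 and BHLHE40 0.965, for TGFB3 and TRIM3 0.969, and for TGFB1 and ARID1B -0.051. Within the 10 genes the strongest relations over the 23 samples were between TGFB3 and GDF15 (r = -0.929) and between INHBB and TGFBR1 (-0.884).

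Levels of markers of other cell types also differed between the glucose groups. The summed level of the 5 fibroblast markers was 47.8 to 57.0 at low and 69.9 to 101.1 at high glucose in MDA-MB-175, and 35.3 to 42.6 against 53.1 to 62.4 in HCC1500, led by LUM in both, while in ZR-75-30 it was at most 1.66. The single markers did not move together in MDA-MB-175. There the means of LUM (21.9 to 58.7), COL3A1 (10.2 to 14.8) and PDGFRB (0.49 to 0.53) rose, and those of COL1A2 (18.8 to 10.7) and DCN (1.40 to 0.90) fell. The 3 leukocyte markers with a row summed to 4.99 to 7.39 at low and 33.6 to 45.2 at high glucose in ZR-75-30, where CD68 led. The 3 basal epithelial markers with a row summed to 79.1 to 110.5 against 112.8 to 132.3 in MDA-MB-175, 6.87 to 10.8 against 21.7 to 33.8 in ZR-75-30 and 6.35 to 6.90 against 11.9 to 14.9 in HCC1500. KRT17 led in MDA-MB-175 (mean 55.3 to 75.1). In ZR-75-30 and HCC1500 the rise was that of ACTA2 (6.57 to 26.7 and 5.72 to 13.4). There TP63 averaged lower at high glucose (2.35 to 1.73 and 0.93 to 0.60), and KRT17 averaged at most 0.51. The part of these marker levels in the changes of the 10 genes was not tested.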

How the data were processed

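RNA-Seq was done on 24 samples of 3 cell lines (RNeasy Plus extraction, Illumina HiSeq). The authors deposited a normalized signal per gene and sample for 18889 Ensembl genes. Each value is a whole read count over a single factor for its sample. The reads were recovered within a tolerance of 0.05 for 100.0% of values, which would also hold for CPM. The values summed to between 5559394 (HCC1500 high glucose replicate 1) and 7594840 (ZR-75-30 high glucose replicate 3) a sample. The deposited signal is therefore not plain CPM, in which all samples have the same total. CPM scaled by a further factor for each sample was not excluded. The source of the factor of each sample is not given in the sources used here. The submitters' processing notes name hg38 and edgeR. The study's methods name hg19 with Ensembl genes, Trimmomatic, TopHat and DESeq2, without saying clearly that this covers the cell lines. They also name edgeR for CPM with TMM normalization, and describe such counts as input to gene set analysis of tumors, xenografts and cell lines. Coordinates of genes here are GRCh37 (GENCODE release lifted to it, 96.3% of gene IDs matched), and promoters are from RefSeq, GRCh38.p14, with all 10 genes matched.

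Limma 3.58.1 (R 4.3.3) was fitted to the 8 samples of each line after log2(value + 1), letting the prior variance follow the mean. A gene was tested if 4 or more fitted samples reached 0.5, with Benjamini-Hochberg adjustment over all of them, and every adjusted p is from limma unless another tool is named. Log2 changes on this scale understate those of weakly expressed genes. A fit of 24 samples gave an F test for unequal changes among lines, and a fit of the 12 low glucose samples gave the line differences. The plan had assumed CPM, and its test on the log scale was kept. The steps were tested on simulated data.

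The 10 genes, the 78 other pathway genes, the markers and the tests were chosen with earlier results of these data known. Named pathway genes were, within each line and role, the called genes without overlap that had the largest rise and fall, plus SMAD2, SMAD4, PMEPA1, SKIL, ACVR1B, ACVR2A, TGFBR3, FST and LTBP1. Likeness was sought for members with a mean value of at least 10, which left out INHBA. Some genes these rules name are not reported here. Alternatives changed the pseudocount, the filter, the scaling or the tool (edgeR 4.0.16 and DESeq2 1.42.0 on the recovered reads), used sample weights, a replicate block or all 24 samples, or left out each sample. The study's methods name a stranded TruSeq mRNA kit where they describe the tumors. They name no library kit for the cell lines, so the strandedness of these libraries is not stated.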

Additional observations from a re-analysis of the deposited data

Results flagged for a closer look

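Of 60 groups of 4 samples (10 genes in 6 groups), 6 held a sample that stood far from the other 3, measured as its gap to the nearest of them over the whole range of the group against Dixon's critical value. Chance flags about 1 group in 20. GDF15 in HCC1500 at high glucose (0.967) and TGFB1 in HCC1500 at high glucose (0.923) both stood out through replicate 3, with 3771 against 1474 to 1549 and with 674.2 against 299.7 to 328.6. GDF15 in MDA-MB-175 at low glucose (0.858) stood out through replicate 4, with 1972 against 2611 to 2717. SMAD7 in HCC1500 at low glucose (0.955) stood out through replicate 2, with 172.8 against 158.1 to 158.8. INHBA in ZR-75-30 gave a ratio of 1 at both low and high glucose, since a single sample in each group had any reads (1 and 4).

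The change with glucose differed between the 3 lines by the limma F test for 6 genes. The adjusted p was 5.72e-10 for SMAD3, 4.79e-07 for INHBB, 0.00103 for GDF15, 0.00212 for TGFBR1, 0.00219 for TGFB2 and 0.00835 for INHBA. INHBA had 1 read at low and 4 reads at high glucose in all of ZR-75-30, entered this fit through the other lines and did not pass in edgeR (adjusted p = 0.0924). The log2 changes in MDA-MB-175, then ZR-75-30, then HCC1500 were 0.81, 0.63 and -0.51 for SMAD3, 0.21, 0.09 and -0.64 for INHBB, 0.98, 1.44 and 2.41 for GDF15, -0.05, -0.14 and 0.39 for TGFBR1, and 1.47, 2.35 and 0.54 for TGFB2.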

How the results depend on the processing

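Over all results, 1407 of 1485 alternative values kept their direction and their side of the threshold or, for counts of genes, stayed within a set ratio of the main count. The count of the 10 genes called stayed at 6 to 7 in MDA-MB-175, 4 to 7 in ZR-75-30 and 4 to 7 in HCC1500, and that of genes differing between lines in their change at 5 to 8. The count of other pathway genes was less stable. In HCC1500 it was 16, and 32 in the fit of all 24 samples, 41 with sample weights and 9 with the replicate block. Leaving out 1 sample gave 8 to 41, the highest without high glucose replicate 3, 10 without high glucose replicate 1 and 8 or 9 without a low glucose sample, each by its number 1 to 4. In MDA-MB-175 it was 25, and 13 in the fit of all 24 samples. Causes were not tested.

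Same-numbered samples did not deviate together (mean r of 0.05, 0.04 and 0.02 in MDA-MB-175, then ZR-75-30, then HCC1500, the lowest pair -0.04, 0.02 and -0.05), and 1, 1 and 2 of 4 correlated best with their own number. With the replicate block TGFB2 in HCC1500 had an adjusted p of 0.0547, and no other call of the 10 genes within a line changed. Of the 37 reversals, 2 concerned a called value, TGFBR1 in HCC1500 minus MDA-MB-175 in the high glucose samples (0.00955, or 0.122 without replicate 3). The others concerned values that had not passed. SMAD7 in HCC1500 was 0.0377 with DESeq2, 0.021 with edgeR, 0.0404 with median-of-ratios rescaling and -0.124 to 0.0428 with 1 sample left out. TGFB1 in HCC1500 was 0.0904, 0.0678 and 0.0427 in the same 3 settings and -0.288 to 0.101 with 1 sample left out. TGFBR2 was -0.0335 with CPM rescaling in HCC1500 and -0.213 with sample weights in ZR-75-30, and ran from -0.191 to 0.208 and from -0.402 to 0.545 with 1 sample left out. Between ZR-75-30 and MDA-MB-175, SMAD7 was -0.0376 with CPM rescaling and passed without ZR-75-30 low glucose replicate 2 (0.353, adjusted p = 0.0104). TGFB1 was 0.274 with DESeq2, 0.271 with edgeR, 0.559 in high glucose samples (adjusted p = 0.142, and 0.0446 with HCC1500 replicate 3 left out), 0.0281 with median-of-ratios rescaling, 0.0156 with a pseudocount of 5, 0.0584 with sample weights and -0.355 to 0.284 with 1 sample left out. TGFB3 was 0.0376 with DESeq2, 0.0369 with edgeR, 0.0273 in high glucose samples and 0.0382 with median-of-ratios rescaling, and it passed at -0.295 (adjusted p = 2.37e-06) with CPM rescaling.

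The median change of all genes in HCC1500 was -0.064, and it moved to -0.118 with CPM rescaling, -0.123 with sample weights and -0.124 without replicate 3. Values under those of 3 reads (0.95 to 2.29) limit INHBA in ZR-75-30 and HCC1500 and TGFBR2 in ZR-75-30.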
